A study of Mus musculus with 3 samples.

Results

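The genes described here encode the enzymes, carriers and receptors of folate metabolism, of one-carbon transfer and of nucleotide synthesis. They were chosen by name from these pathways, not by their values, and 41 of the 42 listed genes were measured among the 22457 genes of the count tables. They were sequenced as poly(A) RNA from primary regulatory T cells (Treg cells, a CD4 lineage that holds back immune responses) of a male adult mouse source aged 4 months. The labels number the 3 libraries 1, 2 and 3 as technical replicates, all from 1 biological replicate. They therefore form a single group, without treatment or control, and every SD and every p-value below measures the spread between libraries and not between animals. The labels used here give no strain, tissue of origin, sorting markers or state of activation.

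Library totals ran from 2782259 to 3316275 counts. The 5 Treg cell markers checked were all at 1 CPM or more in each library (CPM is counts per 1000000 of the library total), among them Foxp3 with 448, 447 and 407 counts in libraries 1, 2 and 3. Markers of other cells were present at low levels that differed between libraries. The 8 B cell markers summed to 59.4, 149 and 180 CPM, the 13 macrophage markers to 20.8, 67.9 and 33.4 CPM, the 6 dendritic cell markers to 6.33, 22.1 and 11.9 CPM and the 6 erythroid markers to 6.33, 14.0 and 30.9 CPM. Most of the B cell and macrophage sums of library 1 lay on Cd79b and Cd68. Cd79b was at 44.6, 53.6 and 73.3 CPM and Cd68 at 15.7, 22.1 and 16.9 CPM, so the rest of both sums differed more. The 2 CD8 T cell markers summed to 21.4, 20.1 and 32.3 CPM, nearly all on Cd8b1. The 6 plasma cell markers summed to 273, 255 and 197 CPM, most of it on Prdm1 and Irf4, which Treg cells also use, while Jchain, the joining chain of secreted antibodies, went the other way at 1.81, 4.55 and 24.4 CPM. The 15 markers of cycling cells were all detected and summed to 5845, 5185 and 5372 CPM.

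Folate carries single carbon units. In the cytosol and in mitochondria, the hydroxymethyltransferases take such a unit from serine, and the methylenetetrahydrofolate dehydrogenases convert it between oxidation states. The units go into the purine ring, into thymidylate and, through methionine synthase, into methionine. Cells that divide build purines and pyrimidines from small precursors or recover them by salvage, and ribonucleotide reductase turns ribonucleotides into the deoxynucleotides of DNA. Izumo1r, also called folate receptor 4 or Juno, is a cell surface marker of Treg cells and the egg receptor for the sperm protein Izumo1. It belongs to the folate receptor family by sequence, but its protein is known not to bind folate.

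Most of the gene set was expressed. Of the 41 measured genes, 38 were detected, that is, at 1 CPM or more in each library, where 47.3% of all genes in the tables were. The 3 that were not are the folate receptors Folr1 and Folr2 and the proton-coupled folate transporter Slc46a1. To compare different genes, CPM was divided by the length of the coding sequence in kilobases, and this value is called the level below. The median level of the 41 genes was 79.2 ± 6.77 (SD of the library medians), against a median of 30.7 over the 10542 detected genes with a coding length. Of the 38 detected members, 31 lay above the median of the detected genes, and the 7 below it were Shmt1, Mtr, Mthfd1l, Pfas, Impdh1, Impdh2 and Cad. The levels of the detected members ran from 4.17 for Pfas to 501 for Izumo1r. Summed over the members, the share of all counts was 0.621% in library 1, 0.598% in library 2 and 0.643% in library 3.

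**Figure D1:**
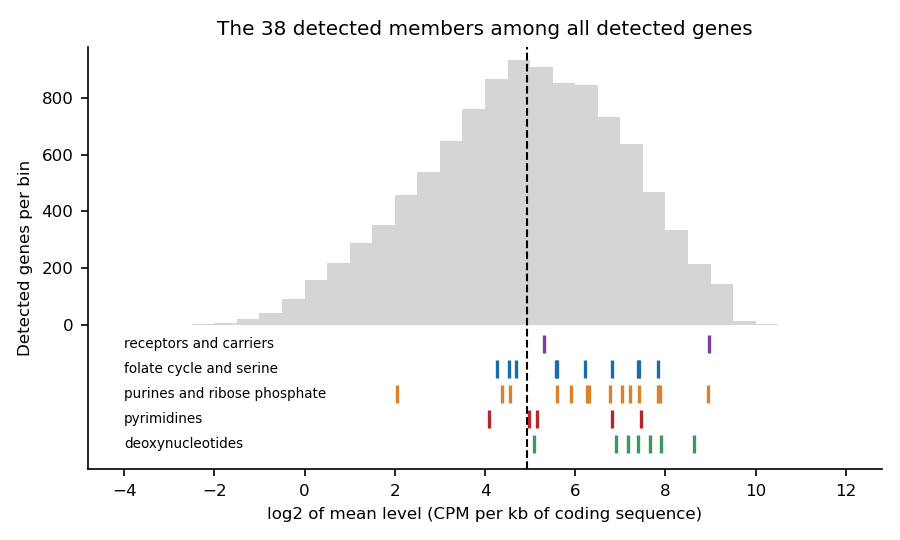
Mean levels of the 38 detected members (coloured ticks, by pathway, on a log2 scale) below a histogram of the mean levels of the 10542 detected genes, whose median is the dashed line at 30.7 CPM per kb. All 7 deoxynucleotide genes lie to the right of the dashed line, and the lowest tick is the purine gene Pfas at 4.17.

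The folate receptors and carriers split sharply by gene. Izumo1r (chromosome 9, 14885814 to 14903949, minus strand, GRCm38) had 1488, 1403 and 1414 counts in libraries 1, 2 and 3. This corresponds to 471 ± 32.5 CPM and to a level of 501 ± 34.7 CPM per kb (SD, n = 3). That level was the highest of all members and above 98.4% of the detected genes. By CPM without length, Rrm1 at 583 and Rrm2 at 500 lay above Izumo1r. Its level was 478, 485 and 541 in the 3 libraries, so library 3 was highest and libraries 1 and 2 were close. In such bulk RNA, fewer cells of a type and less RNA per cell cannot be told apart.

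The Izumo1r promoter is shown as that of the member with the highest level. It is from RefSeq on GRCm38.p6 at chr9:14903718-14904017 (minus strand). The window runs from 250 bases before to 50 after the start site, 5′ to 3′ on the strand of the gene. It holds none of the motifs searched and so has no capitals.
Izumo1r: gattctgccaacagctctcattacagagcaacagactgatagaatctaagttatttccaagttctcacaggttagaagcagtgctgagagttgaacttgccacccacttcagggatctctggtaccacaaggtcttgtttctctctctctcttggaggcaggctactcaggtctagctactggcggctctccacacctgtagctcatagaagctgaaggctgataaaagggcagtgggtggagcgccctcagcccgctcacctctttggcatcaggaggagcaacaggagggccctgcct

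The other members of the receptor family were nearly without counts: Folr1, with 0, 0 and 1 counts, and Folr2, with 0, 1 and 0 counts, lie next to each other on chromosome 7. A count of 0 allows up to 0.905, 0.974 and 1.08 CPM at the depths of the 3 libraries (3 counts each). Against that floor, Izumo1r was at least 405-fold higher per coding length than Folr1 in library 1 and at least 382-fold higher in library 2. Against Folr2, which is also known as a marker of tissue macrophages, it was at least 415-fold higher in library 1 and 395-fold in library 3. Folr2 shares 66.9% of its coding 31-mers (stretches of 31 bases) with Gm10602, a gene on the opposite strand, so its count is uncertain. Of the 13 macrophage markers, 3 were detected, and Vsig4 had no count.

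The reduced folate carrier Slc19a1 (chromosome 10, 77032241 to 77061002, plus strand), the carrier that brings reduced folates into most cells, was the only folate carrier among the members that was detected. It had 243, 196 and 188 counts and a level of 39.8 ± 2.82. Slc46a1, which takes up folate at acid pH in the gut, had 1, 3 and 3 counts. Izumo1r exceeded Slc19a1 by 12.5-fold per coding length (exact 95% binomial interval over the summed counts 11.5 to 13.6, with 11.2, 13.1 and 13.7 in the 3 libraries).

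Izumo1r stood far above the enzymes that use folate. The 9 folate-dependent enzymes among the members had a median level of 48.5, and the log2 ratio of Izumo1r to their median was 3.21, 3.23 and 3.54 in libraries 1, 2 and 3 (mean 3.33 ± 0.19 SD), or 10.1-fold. The order of the single ratios ran from thymidylate synthase Tyms, at 2.20-fold (exact 95% binomial interval 2.09 to 2.32), and Mthfd2, at 2.97-fold (2.81 to 3.14), to Shmt1, at 21.7-fold (19.3 to 24.5), and methionine synthase Mtr, at 25.7-fold (23.7 to 27.9). Izumo1r was higher than each of the 9 in each library. Among the 9, the libraries spread most for Mthfd1l and Mtr, with library 3 apart in both. The ratio to Mthfd1l was 16.3, 15.5 and 31.5, and the ratio to Mtr was 22.9, 21.9 and 37.0. Single libraries of other enzymes also lay outside the interval, which is that of the summed counts. The ratio to Mthfd1, for example, was 9.28, 10.6 and 11.7, against an interval of 9.75 to 11.1. Set against Treg cell genes, the level of Izumo1r was 4.53 times that of Foxp3 (4.26 to 4.83), 1.38 times that of the IL-2 receptor chain Il2ra (1.32 to 1.45) and 1.06 times that of the inhibitory receptor Ctla4 (1.01 to 1.11).

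**Figure D2:**
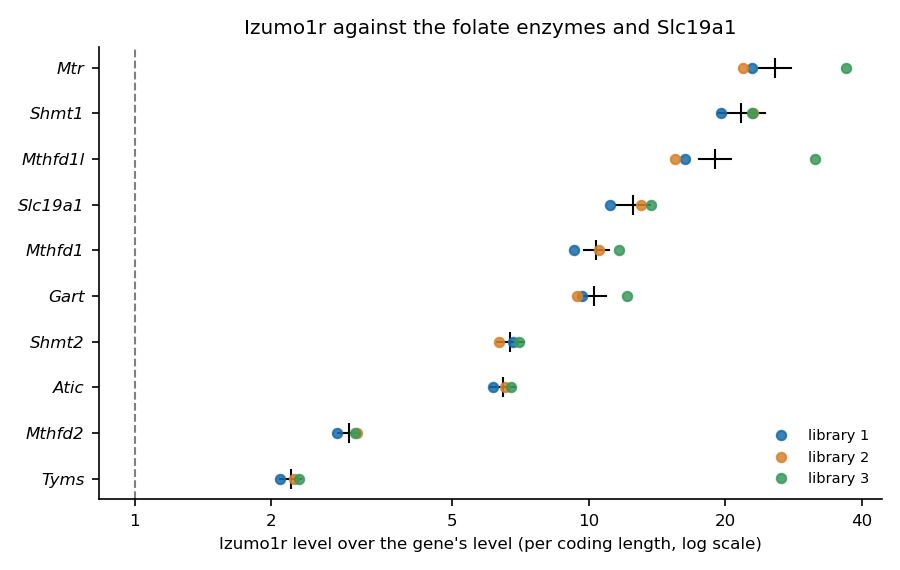
Ratio of the Izumo1r level to that of each folate enzyme and of Slc19a1, per coding length, on a log axis. Coloured points are the 3 libraries, the black tick is the ratio over summed counts and the black line its exact 95% binomial interval. All points lie above 1, from 2.09 for Tyms in library 1 to 37.0 for Mtr in library 3.

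Without division by length, the log2 ratio of Izumo1r to the enzymes was 1.83. Izumo1r also had 1.53 counts per coding base, and genes at such densities had nearly the same counts in all libraries. Among 379 genes with 1 to 1.8 counts per coding base, the highest raw count was a median of 1.08 times the lowest, while the highest library total was 1.19 times the lowest. For the 80 genes at 1.8 or more, that median was 1.02. The chi-square test described below called 35.4% of the 379 genes, against 22.7% of all genes tested. It also called Izumo1r, Hprt and Rrm2, the 3 members in that range. Ctla4 and Il2ra, at 1.44 and 1.11 counts per coding base, lie in it too. The part of this in the levels of these genes, and in the ratios of Izumo1r to Ctla4 and Il2ra, was not tested.

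Within the cytosolic folate cycle, Tyms, which makes thymidylate for DNA, stood apart from the rest. It had 792, 696 and 681 counts and a level of 227 ± 9.17, with close values in all libraries. Tyms shares 26.7% of its coding 31-mers with other genes. Mthfd1, the cytosolic enzyme with 3 activities on the folate-bound unit, had 479, 397 and 362 counts and a level of 47.9 ± 3.08. The cytosolic serine hydroxymethyltransferase Shmt1 had 116, 93 and 94 counts (level 23.0 ± 1.73). Mtr, which passes a methyl group from folate to homocysteine, had 260, 257 and 153 counts (level 19.2 ± 4.04), and library 3 was the low one.

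The Tyms promoter is shown as that of the highest folate enzyme, from RefSeq on GRCm38.p6 at chr5:30073576-30073875 (minus strand), over the same window around the start site. Capitals mark the E box CACGTG, a motif read by Myc and related factors, on either strand.
Tyms: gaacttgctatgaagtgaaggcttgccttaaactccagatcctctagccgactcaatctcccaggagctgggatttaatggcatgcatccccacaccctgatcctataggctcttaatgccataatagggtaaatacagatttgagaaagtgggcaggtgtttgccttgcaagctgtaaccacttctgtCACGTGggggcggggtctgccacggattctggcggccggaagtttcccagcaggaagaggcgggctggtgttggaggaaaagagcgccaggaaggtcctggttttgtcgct

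The mitochondrial arm was higher than the cytosolic one for the first step. Mthfd2, the dehydrogenase and cyclohydrolase of mitochondria, had 668, 570 and 579 counts and a level of 168 ± 10.04. Shmt2, the mitochondrial serine hydroxymethyltransferase, had 352, 356 and 324 counts and a level of 74.6 ± 3.79. Per coding length, Shmt2 exceeded Shmt1 by 3.23-fold (exact 95% binomial interval 2.84 to 3.68) and did so in each library (2.88, 3.63 and 3.27). Mthfd1l, which releases formate from the mitochondrial pathway, had 285, 282 and 140 counts and a level of 25.9 ± 7.63. Mthfd2 was 6.40-fold above Mthfd1l over summed counts, with 5.84, 5.03 and 10.3 in the libraries. The median of the 3 mitochondrial enzymes over that of the 4 cytosolic ones gave a log2 ratio of 0.89, 1.17 and 1.14 (mean 1.06 ± 0.15 SD), but 0.13 by CPM without length.

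The enzymes that make serine, the main donor of the carbon unit, were all detected. Psph, the phosphatase of the last step, had 359, 349 and 350 counts and a level of 172 ± 13.4. The aminotransferase Psat1 followed with 448, 379 and 374 counts and a level of 113 ± 5.81. Phgdh, which catalyses the entry step, had 283, 251 and 207 counts and a level of 48.7 ± 3.36. That value is uncertain, since Phgdh shares 83.8% of its coding 31-mers with other genes, of which Gm7901 shares most.

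Purine synthesis starts from phosphoribosyl pyrophosphate. Of its synthetases, Prps2 had 353, 323 and 288 counts and a level of 110 ± 1.54, the smallest spread relative to its mean of any detected member. Prps1 had 186, 149 and 187 counts and a level of 60.0 ± 9.92. It shares 38.1% of its 31-mers with Prps1l3. Prps2 was 1.85-fold above Prps1 (exact 95% binomial interval 1.66 to 2.06).

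All 10 genes of purine synthesis from precursors were detected, at a median level of 78.2. Paics, the enzyme of the carboxylase and succinocarboxamide steps, stood highest with 1081, 924 and 971 counts and a level of 237 ± 17.9. Gmps, which makes GMP, had 1131, 1090 and 1042 counts (level 171 ± 8.12), and Adss, on the branch to AMP, had 632, 607 and 628 (level 149 ± 13.7). Paics shares 22.1% and Gmps 19.0% of their coding 31-mers with other genes. The lyase Adsl, which acts at steps of both the common path and the AMP branch, had a level of 132 ± 6.06. Ppat, the amidotransferase that commits precursors to the pathway, had 415, 337 and 393 counts and a level of 79.2 ± 10.1. The folate-using transformylases were intermediate, Atic at 77.3 ± 3.05 and Gart at 48.5 ± 3.61, and 19.8% of the coding bases of Gart overlap Gm15964 on the opposite strand.

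At the low end of the purine pathway stood Pfas and both IMP dehydrogenases. Pfas, the amidotransferase that makes formylglycinamidine ribonucleotide, had 43, 56 and 56 counts and a level of 4.17 ± 0.90, below every other detected member, and above 11.7% of the detected genes. Impdh1 had 109, 132 and 104 counts (level 20.9 ± 2.77) and Impdh2 137, 90 and 122 (level 23.6 ± 4.83). These enzymes catalyse the entry step to guanine nucleotides, and Impdh2 is the form known to be raised in proliferating cells. The ratio of Impdh2 to Impdh1 was 1.13 (exact 95% binomial interval 0.972 to 1.32), with 1.41, 0.763 and 1.31 in the libraries, so neither was higher in all 3. Impdh2 shares 85.8% of its coding 31-mers with its pseudogene Impdh2-ps, and its level is uncertain.

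Ppat and Paics lie head to head on chromosome 5, and their annotated 5′ ends overlap by 272 bases (Ppat, 76913249 to 76951578, minus strand; Paics, 76951307 to 76967509, plus strand). No coding base of either gene overlaps an exon of another gene in the annotation. Both were lowest in library 2 and highest in library 3, and Paics was 3.01, 3.17 and 2.85 times Ppat per coding length in libraries 1, 2 and 3. Their promoters are shown because the 5′ ends overlap. The start sites lie 276 bases apart in RefSeq on GRCm38.p6, and the windows, which have no base in common, are at chr5:76951529-76951828 (minus strand) for Ppat and chr5:76951052-76951351 (plus strand) for Paics. Capitals mark the E2F motif TTTCCCGC or the E box CACGTG on either strand.
Ppat: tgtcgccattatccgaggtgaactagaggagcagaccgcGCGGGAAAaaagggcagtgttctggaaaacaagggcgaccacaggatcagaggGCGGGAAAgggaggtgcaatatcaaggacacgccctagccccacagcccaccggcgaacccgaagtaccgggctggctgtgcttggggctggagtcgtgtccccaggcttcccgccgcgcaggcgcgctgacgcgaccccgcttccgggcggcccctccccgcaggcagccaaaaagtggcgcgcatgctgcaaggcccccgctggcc
Paics: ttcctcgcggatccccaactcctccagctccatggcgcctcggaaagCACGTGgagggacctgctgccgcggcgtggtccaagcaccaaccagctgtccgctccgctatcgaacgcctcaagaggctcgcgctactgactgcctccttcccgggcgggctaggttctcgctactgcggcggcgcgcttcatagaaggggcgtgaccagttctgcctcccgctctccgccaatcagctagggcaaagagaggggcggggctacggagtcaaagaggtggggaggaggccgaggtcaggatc

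A promoter was found for 38 of the 42 genes, all but Dhodh, Folr1, Pfas and Rrm2b. These 38 are not the 38 detected members, since they include Folr2 and Slc46a1, which were not detected, and Pnp, which was not measured. The E box was present in 5 of these 38 (13.2%: Atic, Dtymk, Impdh2, Paics and Tyms), against 12% of the 8363 detected genes with a promoter in the table. TTTCCCGC was present in 2 (5.26%: Ppat and Prps2), against 2.61% of the detected genes. The E2F variants TTTGGCGC and TTTGGCGG were in none of the 38 windows and in 1.17% and 1.15% of those of detected genes. The 10-base core motif of NRF1 was in 2 (Ctps and Shmt2), against 2.63%. An absent motif says only that these letters are not in the window.

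Purine salvage genes were high. Hprt (chromosome X, 52988137 to 53021659, plus strand), which recovers hypoxanthine and guanine, had 975, 993 and 969 counts and a level of 492 ± 41.5, second to Izumo1r among the members. The levels of Hprt and Izumo1r overlapped between libraries. Aprt, which recovers adenine, had 383, 372 and 400 counts and a level of 229 ± 27.1. The raw counts of both genes were close in all libraries while the totals differed, so their CPM was highest in library 3, the smallest library. The median of the 10 synthesis genes over that of these 2 salvage genes gave a log2 ratio of -2.07, -2.31 and -2.22 (mean -2.20 ± 0.12 SD), and -0.64 by CPM without length. Pnp, the purine nucleoside phosphorylase, was not analysed here, since no identifier in the tables carries its symbol in the annotation used. Gm49342, chosen after its values were seen, lies on the same strand over Pnp, shares 74.3% of the coding 31-mers of Pnp and had 245, 229 and 211 counts.

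The genes of pyrimidine synthesis had a median level of 35.6, below that of purine synthesis (log2 ratio -1.07, -1.25 and -1.11, mean -1.14 ± 0.10 SD). By CPM without length the ratio was -0.33. Cad, the large enzyme of the first 3 steps, had 394, 402 and 265 counts and the lowest level of this group, 17.0 ± 2.67. Dhodh, the mitochondrial dehydrogenase, had 143, 117 and 116 counts (level 31.3 ± 2.02), and Umps, which completes UMP, had 568, 463 and 469 counts (level 113 ± 7.88). Gm15829 on the opposite strand overlaps 10.8% of the coding bases of Umps. Ctps2, a CTP synthetase, stood highest with 1198, 1029 and 914 counts and a level of 177 ± 9.07. The other CTP synthetase, Ctps, whose human counterpart is known to be needed for lymphocytes to multiply, had 220, 164 and 194 counts and a level of 35.6 ± 4.90. Ctps2 was 4.997-fold above Ctps (exact 95% binomial interval 4.57 to 5.47), with 5.01, 5.77 and 4.33 in the libraries, and Ctps shares 14.1% of its 31-mers with other genes. Ctps2, Hprt, Prps1 and Prps2 are the 4 members on chromosome X.

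**Figure D3:**
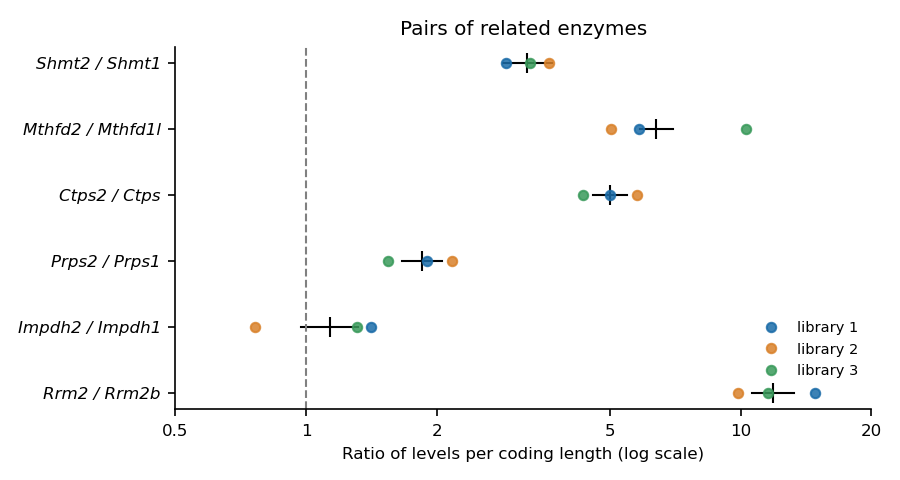
Ratios of levels per coding length within pairs of related enzymes, on a log axis. Coloured points are the 3 libraries, the black tick is the ratio over summed counts and the black line its exact 95% binomial interval. Impdh2 over Impdh1 is the only pair whose libraries lie on both sides of 1.

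The genes of deoxynucleotide supply were high as a group, all 7 above the median of the detected genes. Rrm2, the small subunit of ribonucleotide reductase made in S phase, had 1648, 1455 and 1478 counts and a level of 400 ± 23.6, and Rrm1, the large subunit, had 2066, 1601 and 1689 counts and a level of 238 ± 22.6. Rrm2b, the small subunit that p53 induces in cells that are not dividing, had 94, 125 and 108 counts and a level of 33.9 ± 6.25. Rrm2 was 11.9-fold above Rrm2b (exact 95% binomial interval 10.6 to 13.3), with 14.8, 9.85 and 11.6 in the libraries. Rrm2 shares 26.4% and Rrm2b 41.9% of their 31-mers with other genes.

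Dut, which removes dUTP, had 386, 377 and 378 counts (level 203 ± 16.2). The salvage kinase Dck had 423, 420 and 361 counts (level 168 ± 5.91), the thymidylate kinase Dtymk 336, 286 and 303 (level 144 ± 11.4), and the thymidine kinase Tk1 277, 233 and 252 (level 119 ± 10.7). Dck, which also acts outside S phase, thus lay above the S phase kinase Tk1, with a Tk1 to Dck ratio of 0.706 (exact 95% binomial interval 0.644 to 0.774) and below 1 in each library. The median of the 7 genes over that of the 29 other enzymes gave a log2 ratio of 1.08, 1.24 and 1.05 (mean 1.12 ± 0.10 SD). This difference is one of levels per length: by CPM without length it was -0.0048, and by exon length 0.39.

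**Figure D4:**
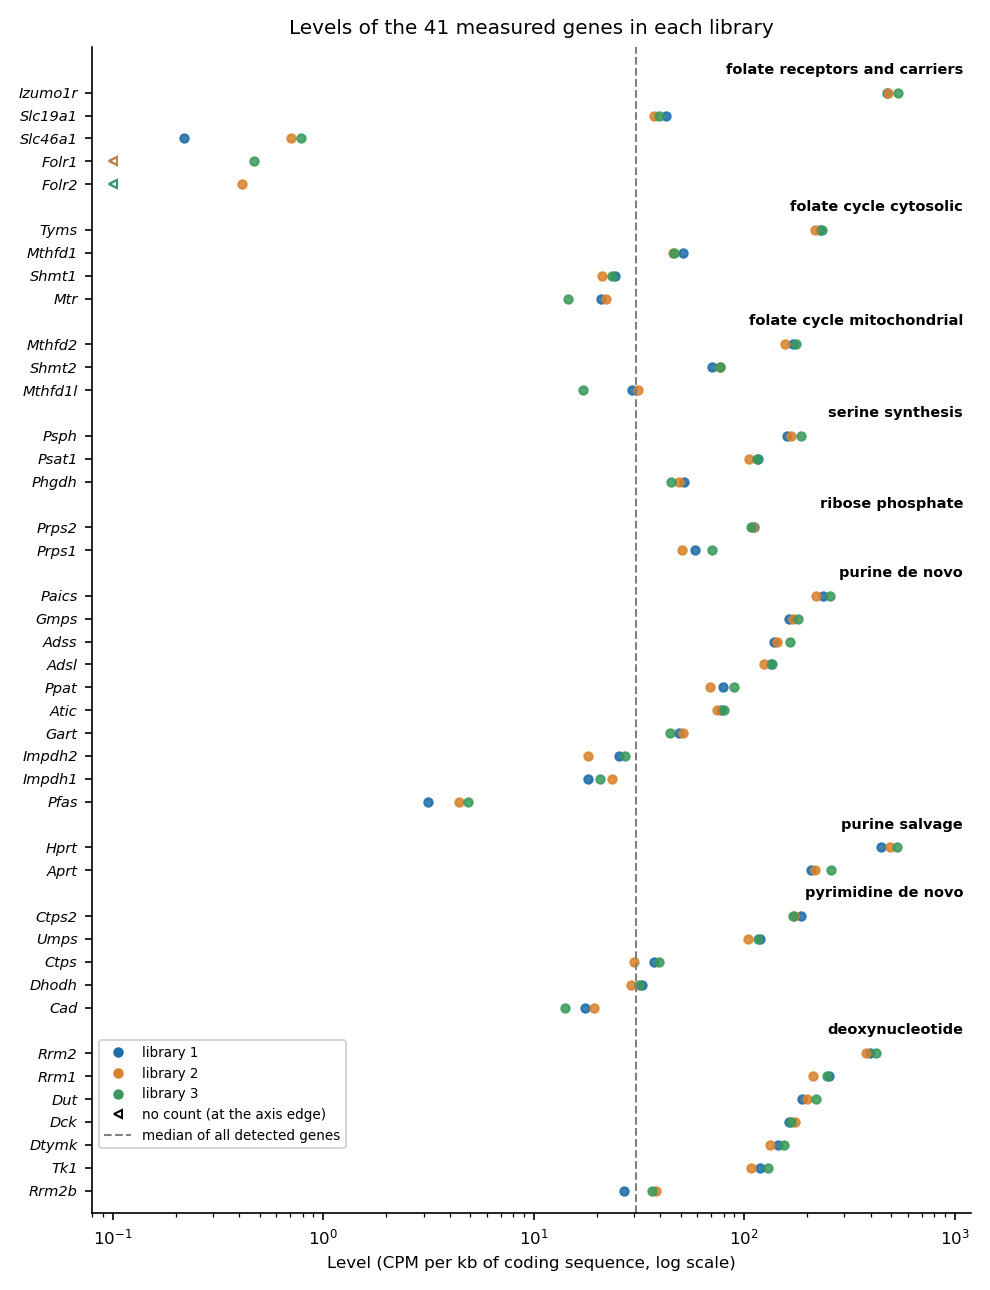
Level of each of the 41 measured members in libraries 1, 2 and 3, as CPM per kb of coding sequence on a log axis, grouped by role. Open triangles at the axis edge stand for no count, and the dashed line is the median of the detected genes. Folr1, Folr2 and Slc46a1 lie below 1, while Izumo1r and Hprt lie between 450 and 541.

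In the order of levels, 33 of the 40 pairs of neighbouring members overlapped between libraries. The 7 pairs that did not overlap were Hprt and Rrm2, Rrm2 and Rrm1, Dut and Ctps2, Prps2 and Ppat, Mthfd1 and Slc19a1, Cad and Pfas, and Pfas and Slc46a1. The SD of a detected member over the libraries was a median of 7.53% of its mean CPM, from 1.40% for Prps2 to 29.5% for Mthfd1l.

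Other genes of the same pathways, from a list of 71, were detected in 54 cases, and 10 of the 52 tested (19.2%, against 22.7% of all genes) differed between libraries by the chi-square test described below. Of the 22 further folate and one-carbon genes, 13 were detected, at a median level of 7.38 over all 22. Mat2b and Mat2a, subunits of the enzyme that makes S-adenosylmethionine, were highest at 353 ± 16.0 and 193 ± 13.6. Mat2a shares 37.9% of its coding 31-mers with other genes. Ftcd and Bhmt had no count, but 94.8% of the 31-mers of Bhmt are shared with other genes. The other genes named in this paragraph and Ada and Dpyd in the next were chosen after their values were seen. Ggh, which shortens folate chains, had 475, 499 and 492 counts and a level of 169 ± 17.7. The synthetase Fpgs, which keeps folate in the cell by lengthening its chain, had 35, 31 and 40 counts and a level of 6.18 ± 1.25. Of the glycine cleavage genes, Gldc had 1, 0 and 1 counts and Amt 2, 0 and 2, while Dld, which other mitochondrial complexes also use, had a level of 159 ± 4.93. Mthfd2l, the second mitochondrial dehydrogenase, had 5, 1 and 1 counts, and Aldh1l2 had 0, 0 and 1. Ahcy, at 5.02, shares 96.2% of its 31-mers with other genes and is uncertain.

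Of 21 further purine genes, 17 were detected, among them the adenosine kinase Adk at 118 ± 6.94. Adenosine deaminase Ada had 64, 65 and 64 counts (level 20.02 ± 1.75). Nme2 had no count, but all of its 31-mers are shared with other genes. Of 15 further genes of pyrimidines and deoxynucleotides, 13 were detected. Samhd1, which breaks down deoxynucleotide triphosphates, was highest with 3281, 3344 and 3028 counts and a level of 510 ± 27.3, and the nucleotidase Nt5c followed at 354 ± 19.9. Cda, which deaminates cytidine, had no count in any library, and Dpyd, which starts pyrimidine breakdown, had 1, 0 and 0.

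Between the libraries, single members differed more than counting noise. A chi-square test of each gene's counts against the library totals, adjusted by Benjamini-Hochberg over all 10043 genes with 30 or more counts, called 13 of the 38 members tested (34.2%), against 22.7% of all genes. The 3 undetected members had too few counts to be tested. This test compares libraries of a single group and allows for counting noise only. The quasi-likelihood test of edgeR also takes the spread between libraries into account and set each library against the other 2. It called 1 member, Mthfd1l, in library 3 (log2 fold change -0.84, edgeR adjusted p = 0.0230), where 0.541% of 9620 genes were called. In libraries 1 and 2 it called no member, where 0.114% and 0.052% of genes were called.

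Mthfd1l, Mtr and Cad, which serve formate release, methionine and pyrimidines, were low in library 3. Mthfd1l differed by 1.82-fold between the highest and the lowest library (chi-square test, adjusted p = 3.46e-07), Mtr by 1.52-fold (chi-square test, adjusted p = 0.00143) and Cad by 1.37-fold (chi-square test, adjusted p = 0.00327). Rrm1 was high in library 1 and low in library 2, by 1.20-fold (chi-square test, adjusted p = 2.72e-06). The other 9 had smaller or more marginal differences: Hprt, Izumo1r, Ppat, Paics, Aprt, Rrm2, Adss, Impdh2 and Prps1, with adjusted p from 0.00774 to 0.0467. Of the 38 members tested, 9 were called with their highest CPM in library 3, against 807 of 10043 genes (8.04%). Another 3 were called with their lowest CPM there, against 911 of 10043 genes (9.07%). Scaling with TMM in place of totals left 6 calls (Mthfd1l, Mtr, Cad, Rrm1, Ppat and Hprt), or 15.8% of the members against 22% of all genes, so the members' share then lay below that of all genes. With totals, leaving out library 1 left 10 calls (26.3% against 13.1%). Leaving out library 2 left 7 (18.4% against 15.3%), and leaving out library 3 left 1, Rrm1 (2.63% against 9.43%). Izumo1r was not called under TMM scaling, with DESeq2 size factors, by edgeR or without library 3.

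The 3 called members that were lowest in library 3 have long coding sequences: 2931 bases in Mthfd1l, 3759 in Mtr and 6747 in Cad. Of all detected members, 7 were lowest there. The others, which were not called, were Gart (3062 bases), Ctps2 (1928), Phgdh (1652) and Prps2 (954). Across the 38 members tested, the log2 ratio of library 3 to library 1 had a Spearman rho of -0.53 with coding length, and across 9989 genes -0.27 (across genes, which share their libraries and are not independent replicates). For library 2 over library 1, rho was 0.010 across the members and -0.16 across all genes. The 10 members under 1000 coding bases had a median log2 ratio of 0.20, against 0.13 for the 2994 genes of that length. Those of 1000 to 2000 bases (20 members) had a median of 0.05, against 0.02 for 3881 genes. In the class of 2000 to 3000 bases, 4 members had a median of -0.09, against -0.08 for 1664 genes, and Mthfd1l stood at -0.77. The 4 members of 3000 bases or more had a median of -0.23, against -0.10 for 1450 genes, although Pfas, with 4104 bases, went the other way at 0.63 on 43, 56 and 56 counts (chi-square test, adjusted p = 0.199). The part of length in these calls was not tested, nor that of the other cells whose markers differed between the libraries.

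**Figure D5:**
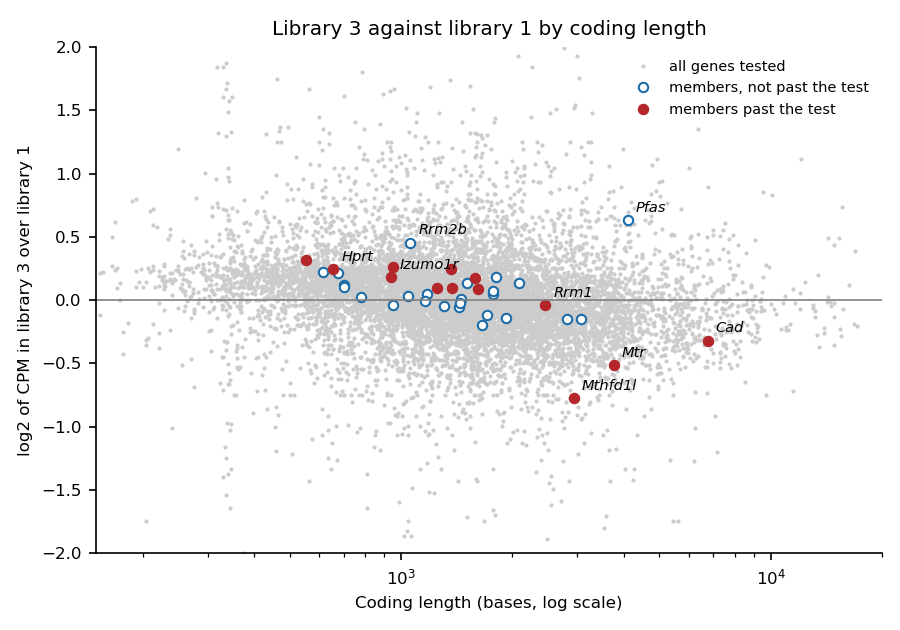
Log2 ratio of CPM in library 3 to library 1 against coding length (log axis) for the genes tested (grey, 9915 of 9989 within the axes) and the members (red where past the chi-square test, open blue where not). Mthfd1l, Mtr and Cad lie at -0.77, -0.51 and -0.32, below most members, and Pfas lies above them at 0.63.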

How the data were processed

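Poly(A) RNA was sequenced in 3 libraries, which the labels call technical replicates of 1 biological replicate. The deposited values are whole-number counts per gene, made by the authors from alignments to mm10 with GENCODE M4, per the notes accompanying each deposited table. Which aligner and counter were used, whether strand was read, and how duplicates and multiple matches were treated is not given in the sources used here. Totals are 3316275, 3079004 and 2782259 counts, and a count of 0 allows up to 3 counts. Intervals are exact at 95% and cover counting error only. Whether PCR copies were counted is not known here, and if they were, the intervals are too narrow.

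Symbols, coordinates and lengths came from GENCODE M21 on GRCm38, the same assembly in a later release: 22195 of 22457 identifiers matched, and the 262 others held 0.136% of the counts. Levels are CPM per kb of coding length (union of annotated coding exons). Coding 31-mers shared with transcripts of other genes were counted on both strands. Counts were tested between libraries by chi-square against the totals with SciPy 1.17.1 (30 or more summed counts, threshold 0.05, Benjamini-Hochberg over all genes), and by edgeR 4.0.16. DESeq2 1.42.0 gave size factors as an alternative. Both tests were tested on simulated counts with counting (Poisson) noise only. That does not check the chi-square calls under the wider spread between these libraries. Every member was to be named, with values in each library for the highest and lowest of each role and for those past the threshold, and from the wider list the 2 highest and the lowest of each group. Other genes named are marked as chosen after their values were seen. Some genes of the wider list are not reported here. Members and lists were chosen with earlier results of these data known. The alternatives were another scaling, filter, threshold or length, genes with shared sequence left out, and each library left out.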

Additional observations from a re-analysis of the deposited data

How the results depend on the processing

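The 38 detected members stayed 38 at 0.5 and 5 CPM, with TMM scaling and without any single library. The number of members called between libraries (13 by the chi-square test) was 6 with TMM (15.8%, against 22% of all genes), 7 with DESeq2 size factors (18.4% against 21.9%), 11 without the count filter (26.8% against 14%) and 1 by edgeR's quasi-likelihood test (smallest p of the 3 libraries times 3). With all 3 libraries, the members' share by the chi-square test was thus above that of all genes with library totals and below it with either other scaling. Leaving out library 1, 2 or 3 left 10, 7 or 1 of the 13 called. These were 26.3%, 18.4% and 2.63% of the members, against 13.1%, 15.3% and 9.43% of all genes. Without library 3, the members' share was thus below that of all genes with library totals as well. The number over all genes was 37 of 9620 by edgeR and, without each library, 904 to 1466, against 2277. The median member level of 79.2 was 28.8 per exon length, 116 as CPM and 111 without the 3 members whose 31-mers are mostly shared (Folr2, Phgdh and Impdh2). The log2 ratios without length and with exon length were 1.83 and 2.84 for Izumo1r over the folate enzymes, 0.13 and 0.88 for mitochondrial over cytosolic enzymes, -0.64 and -2.52 for purine synthesis over salvage, -0.33 and -0.60 for pyrimidine over purine synthesis, and -0.0048 and 0.39 for deoxynucleotide over other enzymes. These changes come from dividing by another length. No gene with mostly shared 31-mers enters the Izumo1r or mitochondrial ratios, so leaving such genes out could not change them. Leaving them out gave -2.16 for purine synthesis over salvage, -1.19 for pyrimidine over purine synthesis and 1.05 for deoxynucleotide over other enzymes. These, and 3.43 for Izumo1r with the wider enzyme list, lay within 1 SD between libraries of the main values. A ratio averaged over 3 libraries cannot move by 1 SD when a single library is left out, so that step tests nothing here. With a single group of libraries, no paired analysis was possible because there is no second group to pair.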

Other observations

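Genes that feed or regulate these pathways were also measured. Of the 6 transporters listed, 5 were detected. Slc1a5, which brings in glutamine, the nitrogen donor of purines and of CTP, had 1240, 1317 and 1140 counts and a level of 243 ± 16.5, while the serine carrier Slc1a4 had 6, 0 and 2 counts. Of the nucleoside carriers, Slc29a1 had 537, 423 and 403 counts and a level of 107 ± 9.12, and Slc29a2 had 8, 7 and 5 counts. Of the 7 regulators listed, 6 were detected. Atf4, a factor known to drive genes of serine synthesis, had 657, 625 and 646 counts and a level of 202 ± 17.6. Myc had 320, 312 and 352 counts (level 79.4 ± 11.8) and Mycn none. Among E2F genes, chosen after their values were seen as was Slc29a2, E2f2 was highest with 240, 220 and 185 counts (level 52.8 ± 2.38), followed by E2f3 at 10.3 ± 2.12 and E2f1 at 4.96 ± 1.17.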
